A study of Callithrix jacchus with 4 samples.

Results

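Serpins are a superfamily of proteins, most of which trap a single protease each. The protease cuts an exposed loop of the serpin, the serpin springs into a new shape, and both stay joined and are then cleared, in part by receptors such as LRP1. Some members have left this role, and *SERPINH1*, which works as a chaperone of collagen inside the endoplasmic reticulum, is one of them. In the brain serpins are known for tuning the plasminogen activators, complement and granzymes, and *SERPINA3* is widely used as a mark of reactive glia.

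The 6 serpin genes described here, *SERPINA3*, *SERPINB9*, *SERPINE2*, *SERPINH1*, *SERPING1* and *SERPINI1*, were chosen by name. Earlier results of these data were known at that point, so counts over the 6 are not those of an unselected list. All 6 are among the 16383 genes listed for both cohorts, of 32323 listed in all. UMIs (unique molecular identifiers, 1 per captured transcript) were summed per library and per cell type given by the authors. The sums are reported as CPM, the UMIs of a gene per 1000000 UMIs of the sum, beside the share of nuclei with at least 1 UMI. All 42 pairs of gene and cell type passed the filter on low counts and were tested, and a gene without control UMIs passed it through its injured sums. No sequence of these genes was used here.

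Single nuclei were profiled from the primary visual cortex (V1) of adult common marmosets. The injured group is 3 animals with 1 library each, in which the vasoconstrictor peptide endothelin-1 had caused an ischemic stroke 7 days earlier. Their tissue included the core and the surrounding penumbra of the lesion. The control group is V1 of 3 uninjured adult animals, whose nuclei went into a single pooled library. Control animals therefore have no spread of their own, and every test takes it from the injured libraries. How nuclei were isolated, where they were sequenced and how doublets were filtered differed between the cohorts and not within them, so cohort and injury cannot be told apart.

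The injured libraries held 7500, 12527 and 9510 nuclei (replicates 1, 2 and 3) with a median of 4504.5, 3531 and 4229.5 UMIs, and the control library held 8610 nuclei with a median of 2117. The authors sorted nuclei into astrocytes (Astro), oligodendrocyte precursors (OPC), oligodendrocytes (Oligo), excitatory and inhibitory neurons (ExN, InN), Microglia and vascular nuclei (Endo). Of the markers of these types, 32 of 33 in the injured cohort and 31 of 32 in the control library were highest in their own type. The exceptions were *GPR34*, highest in injured OPC, and *FLT1*, highest in control Microglia. Any 2 libraries shared 15 to 27 cell barcodes. Precision differed most in control, where 3 UMIs amounted to 0.1755 CPM in ExN, 3.47 in Astro, 14.7 in Endo, 16.05 in OPC and 24.1 in Microglia. In these sums, fewer expressing nuclei and less RNA per nucleus cannot be told apart, except where the share of nuclei is given.

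*SERPINA3*, *SERPINH1* and *SERPING1* were above the control library in all 3 injured animals in 7 of 7 cell types. *SERPINB9* was above it in 5, *SERPINI1* in 4 and *SERPINE2* in 2. Together 32 of 42 pairs of gene and cell type had every injured animal above control, 7 had every one below and 3 were mixed, while over all genes tested 38.5% of pairs had every animal above and 43.1% every one below. In 13 of the 32 control had 0 UMIs, so that any injured UMI lay above it, whereas 7.09% of pairs over all genes tested had 0 control UMIs. The 32 of 42 and the 38.5% are therefore not on the same footing. In 9 of the 13 without control UMIs every injured animal was also above the level of 3 control UMIs. A pair was called when edgeR gave an adjusted p below 0.01, the natural-log fold change exceeded 0.25 and at least 10% of nuclei of either cohort had a UMI. On these limits 6 pairs from 4 genes rose (6 of 42, beside 1.61% of all tests over the 7 cell types) and 0 fell (0.748%). The 6 became 4 without injured replicate 1, 16 without replicate 2 and 13 without replicate 3. The share of all genes called without each replicate is not given, so this change is not read as particular to serpins. The rises were *SERPINB9* in Astro, *SERPINI1* in ExN, InN and Endo, and *SERPINH1* and *SERPING1* in Endo. At an unadjusted p under 0.05, 23 of 42 pairs were higher and 2 lower, where 30.4% of all tests passed either way. DESeq2 called 10 higher, beside 2.45% of all tests, and 0 lower.

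**Figure D1:**
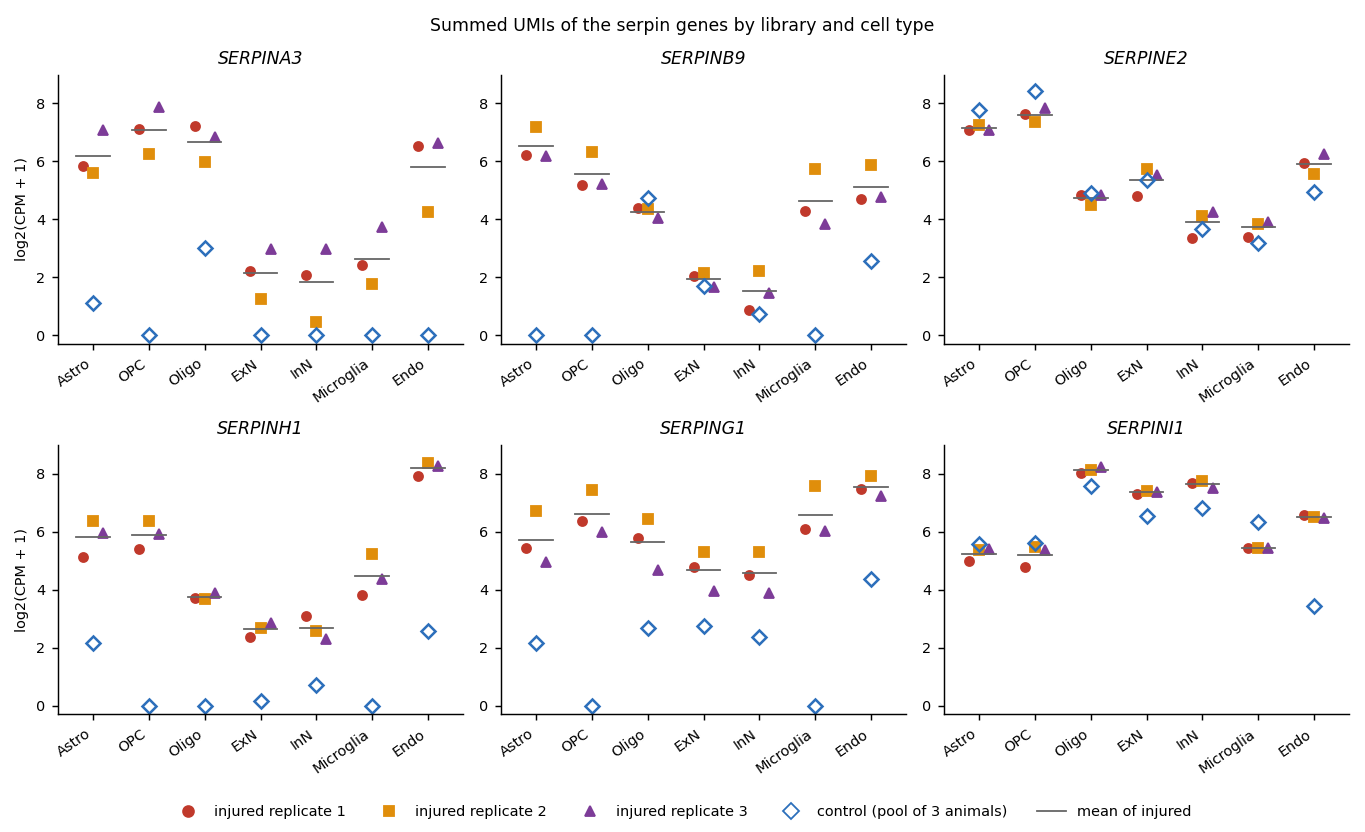
Each panel shows 1 serpin gene, with log2(CPM + 1) on the y axis and the 7 cell types on the x axis. Filled symbols are the 3 injured libraries, grey bars their mean and open diamonds the pooled control library; in the *SERPINA3*, *SERPINH1* and *SERPING1* panels every filled symbol lies above its diamond.

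*SERPINA3*, or alpha-1-antichymotrypsin, inhibits chymotrypsin-like proteases such as cathepsin G and is a plasma acute-phase protein. In Astro it stood at 56.5, 47.5 and 135 CPM in injured replicates 1, 2 and 3, and at 1.16 CPM, a single UMI, in control. The share of astrocyte nuclei with a UMI was 18.7%, 9.68% and 27.5% against 0.168%. Replicate 3 was the highest and replicate 2 the lowest, and all lay above the control library. The ratio of the pooled injured sum to control was 75.6 (95% counting interval 13.5 to 2991), and the pair was not called (edgeR, adjusted p = 0.0259).

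Injured OPC and Oligo also held *SERPINA3*. In OPC, the dividing progenitors of the oligodendrocyte lineage, it stood at 138.5, 75.7 and 234 CPM, and control OPC had 0 UMIs. Against the level of 3 control UMIs, *SERPINA3* was 9.84-fold higher in the pooled injured sum. In Oligo it stood at 148, 62.1 and 115 CPM against 7.05 CPM (9 UMIs) in control. Both cell types had all injured animals above control and neither was called (edgeR, adjusted p = 0.101 in OPC, where 0.0610% of all genes were called higher, and 0.0169 in Oligo, where the log2 fold change was 4.03 ± 0.67, SE).

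Within the injured animals the mean *SERPINA3* level fell in the order OPC, Oligo, Astro and Endo (149.5, 108, 79.7 and 69.4 CPM), and no neighbouring pair among these passed the test between cell types with animal as a block (edgeR, adjusted p from 0.112 to 0.571; over the 21 pairs of cell types 48.7% of tests of all genes were called). Further apart in that order, OPC and Oligo exceeded Endo by 1.28 ± 0.28 and 1.06 ± 0.28 (log2, SE, edgeR, adjusted p = 0.000634 and 0.00279). OPC and Astro did not differ past the limit (adjusted p = 0.0356). Below Endo came a step of 3.37 ± 0.33 (log2, SE) to Microglia, with adjusted p = 1.5e-08. Microglia, ExN and InN held 6.27, 3.97 and 3.50 CPM. In InN 1.80% ± 1.64 (SD, n = 3) of nuclei had a UMI at a median of 5333 UMIs per nucleus, compared with 18.6% ± 8.90 of astrocytes at 3851, so the astrocyte share was above this low level. With nuclei thinned to 1000 UMIs the shares were 6.29% ± 4.03 in Astro, 8.44% ± 4.13 in OPC, 8.38% ± 3.64 in Oligo and 0.583% ± 0.527 in InN. The calls for this gene depended on which libraries entered. Replicate 2 was its lowest animal in 7 of 7 cell types, and without it Astro, OPC, Oligo and Endo were called. Without replicate 3, its highest animal in 6, Astro and OPC were called (edgeR, adjusted p = 0.00136 and 0.000449). Leaving out the lowest animal raises the injured mean, and control OPC and Endo had 0 UMIs. The share of all genes called without either replicate is not given, so no support for a rise is drawn from these calls.

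*SERPINB9* blocks granzyme B inside cells and protects them from cytotoxic lymphocytes. It rose in Astro, at 74.3, 144 and 71.2 CPM against 0 UMIs in 594 control nuclei. Replicate 2 was the highest, and all 3 were far above the 3.47 CPM that 3 control UMIs would give. The pooled injured sum was 27.6-fold above that level, and the pair was called (edgeR, adjusted p = 0.00694, with 1.12% of all genes called higher in Astro). It was not called with nuclei thinned to 1000 UMIs, where its shares were under the 10% limit and no call was possible. Nor was it called among nuclei with at most 2500 genes. A UMI was found in 18.4%, 24.2% and 16.4% of injured astrocytes at a median of 3851 UMIs, while 0 of 594 control nuclei, at a median of 1183, allow a share with a UMI of up to 0.505%. At 1000 UMIs per nucleus the injured shares were 6.28%, 9.71% and 4.76%, against 0 of 362 control nuclei.

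In Oligo the injured level lay under control. It stood at 19.8, 19.6 and 15.5 CPM, all below the 25.8 CPM (33 UMIs) of control, with a log2 fold change of −0.39 ± 0.30 (SE) that was not called (edgeR, adjusted p = 0.415). In ExN, at 3.07, 3.37 and 2.17 CPM against 2.22 (38 UMIs), the injured animals lay on both sides of control. A fit of the injury effect in Oligo against the mean of the other 6 cell types was called (edgeR, adjusted p = 0.00749, with 0.305% of all genes called for Oligo). Of those 6, Astro, OPC and Microglia had 0 control UMIs and passed the filter through their injured sums, which largely set the direction of this contrast, and no difference is read from it.

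Across injured cell types *SERPINB9* was highest in Astro, 1.05 ± 0.22 (log2, SE) above OPC (edgeR, adjusted p = 0.00066). OPC, Endo, Microglia and Oligo followed at 50.4, 36.4, 27.9 and 18.3 CPM, and no neighbours among them differed past the limit. Further apart, OPC exceeded Microglia by 0.90 ± 0.22 and Oligo by 1.27 ± 0.27 (log2, SE, edgeR, adjusted p = 0.0015 and 0.000639). Endo and Oligo did not differ past the limit (adjusted p = 0.0186). ExN and InN stood lowest, at 2.87 and 2.07 CPM, 2.76 ± 0.30 (log2, SE) under Oligo in the case of ExN (edgeR, adjusted p = 9.97e-08). Control had another order, with Oligo highest at 25.8 CPM, Endo next at 4.90 (1 UMI) and Astro at 0.

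Injured nuclei of the Microglia type were not uniform for *SERPINB9*. The authors clustered each cohort apart and deposited the cluster numbers, and a number in one cohort has no link to the same number in the other. In injured cluster 16 (2216 nuclei) *SERPINB9* stood at 95.5, 143 and 75.1 CPM in replicates 1, 2 and 3, whereas cluster 6 held 7.90, 42.0 and 5.16 and cluster 21 held 5.495, 15.03 and 1.88. Cluster 16 was thus the highest in each animal. It also held *CD3E*, a T cell receptor component, at 123, 89.1 and 63.5 CPM, compared with at most 1.11 CPM in any animal's cluster 6 or 21. Its summed markers of T and NK cells were 1973, 1705 and 1648 CPM, where all injured Microglia nuclei, cluster 16 included, held 901.5, 932 and 841 CPM. Its summed markers of microglia were 2937, 3317 and 3511 CPM. Of the latter *CD74*, an antigen presentation gene, made up 1604, 1998 and 2127 CPM, while *P2RY12*, a receptor of resident microglia, was at 31.0, 18.7 and 26.9 CPM, compared with 164, 83.7 and 160.0 in cluster 6. Clusters were formed on these same nuclei, so this is a description with no test. Without cluster 16 the microglial level was 7.06, 33.8 and 3.88 CPM. The 129 control Microglia nuclei had 0 UMIs of *SERPINB9*, and neither version was called (edgeR, adjusted p = 0.575 with cluster 16 and 0.71 without).

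*SERPING1* encodes the C1 inhibitor, which inactivates the complement proteases C1r and C1s as well as plasma kallikrein. It rose in Endo, at 180, 243 and 152 CPM against 19.6 CPM (4 UMIs), a log2 fold change of 3.42 ± 0.59 (SE; edgeR, adjusted p = 0.00581, with 4.19% of all genes called higher in Endo). The call was lost without replicate 1 (adjusted p = 0.0131), with library size alone (0.0102) and with a spread shared by all cell types (0.147). All 3 injured animals were above the control library by more than they differed among themselves. The share of Endo nuclei with a UMI was 26.1% ± 3.50 (SD, n = 3) against 1.105%.

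The gene stood above control elsewhere without a call. It was at 68.0, 191 and 64.9 CPM in Microglia and at 81.9, 174 and 62.6 CPM in OPC, and control had 0 UMIs in both. Against the level of 3 control UMIs, the pooled injured sum was 4.13-fold higher in Microglia and 6.315-fold higher in OPC. In ExN it was at 26.3, 38.7 and 14.4 CPM against 5.68 (97 UMIs), with a log2 fold change of 2.34 ± 0.58 (SE; edgeR, adjusted p = 0.0312). InN held 21.6, 38.3 and 13.9 CPM against 4.21 (13 UMIs), with a log2 fold change of 2.67 ± 0.65 (SE; edgeR, adjusted p = 0.0226). Replicate 2 was the highest animal and replicate 3 the lowest in each of these cell types.

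Across injured cell types Endo held the most *SERPING1*, 0.88 ± 0.17 (log2, SE) above Microglia (edgeR, adjusted p = 0.000115). Microglia and OPC did not differ past the limit (108 ± 71.9 and 106 ± 59.7 CPM, SD, n = 3; adjusted p = 0.927), nor did Astro and Oligo (59.2 ± 40.1 and 55.25 ± 30.5 CPM; adjusted p = 0.991). ExN and InN were lowest, at 26.5 and 24.6 CPM.

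The order of animals was also tallied for *C1S* and *C1R*, which encode target proteases of *SERPING1*. *C1S* was highest in replicate 2 in 7 of 7 cell types and lowest in replicate 3 in 6, and *C1R* was highest in replicate 2 in 6 of 7 and lowest in replicate 3 in 5. *KLKB1*, plasma kallikrein, had no such order. It was highest in replicate 2 in OPC, Microglia and Endo, in replicate 3 in Astro and ExN, and in replicate 1 in InN and Oligo. In Microglia *C1S* stood at 56.4, 189 and 49.4 CPM and control had 0 UMIs. In Endo *C1S* rose, at 107, 134 and 102 CPM against 4.90 (1 UMI), a ratio of 23.5 (95% counting interval 4.21 to 929, edgeR, adjusted p = 0.00309). DESeq2 did not make this call. The comparison of animal orders was made after the values were seen, and the 3 animals allow no test of it.

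The orders of the injured animals differed from gene to gene. *SERPINA3* was lowest in replicate 2 in 7 of 7 cell types and highest in replicate 3 in 6, with a median of 0.377 of the mean of the 3 animals in replicate 2 and 1.70 in replicate 3. *SERPING1* ran the other way, highest in replicate 2 and lowest in replicate 3 in 7 of 7, with medians of 1.56 and 0.564. *SERPINB9* was highest in replicate 2 in 6 of 7. *SERPINI1* had medians from 0.96 to 1.03, with single cell types apart, such as OPC at 26.5 CPM in replicate 1 and 43.1 in replicate 2. Among the 14233 genes with at least 100 injured UMIs, 4.61% were highest in 1 same animal in all 7 cell types, 4.1% were lowest in 1, and 0.625% were highest in replicate 2 and lowest in replicate 3 throughout, as *SERPING1* was.

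**Figure D2:**
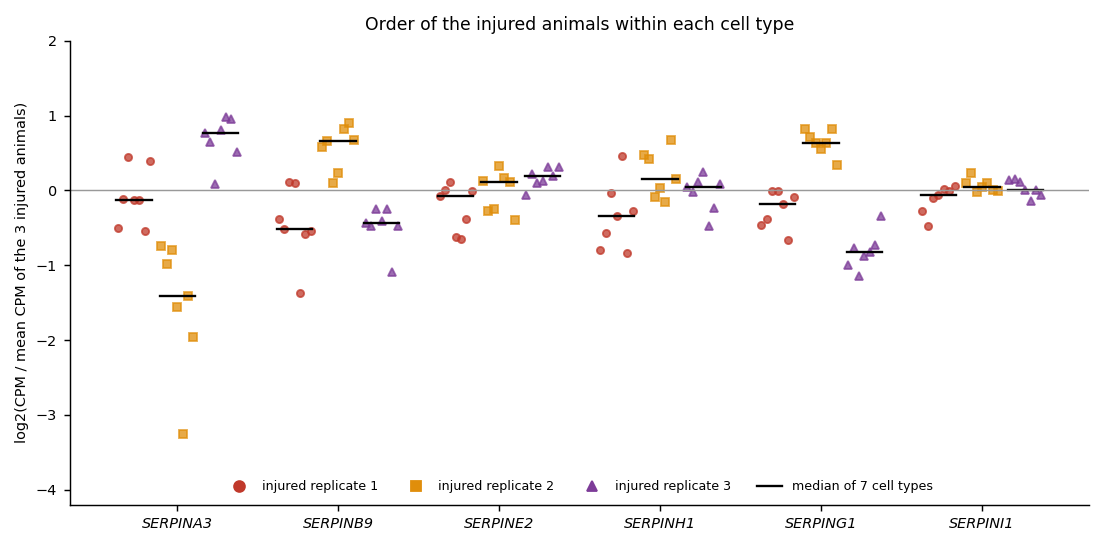
The y axis gives log2 of each injured animal's CPM over the mean CPM of the 3 injured animals, for 6 serpin genes on the x axis; each symbol is 1 of 7 cell types and black bars are medians. The symbols of replicate 2 lie lowest for *SERPINA3* and highest for *SERPING1*, and the medians of *SERPINI1* lie near 0 for all animals.

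*SERPINH1*, or HSP47, holds procollagen in its folded form in the endoplasmic reticulum. It rose in Endo, at 244, 328 and 312 CPM against 4.90 CPM (1 UMI). The injured animals lay close together and far above control, with a ratio of 61.9 (95% counting interval 11.1 to 2445; edgeR, adjusted p = 0.000843). A UMI was found in 31.7% ± 4.32 (SD, n = 3) of injured Endo nuclei and in 0.5525% in control. This was the only member and cell type pair called under all 12 alternatives run on the whole cell types.

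Outside Endo *SERPINH1* was lower in level and above control in every animal. In Astro it stood at 34.1, 82.0 and 61.3 CPM against 3.47 (3 UMIs), a ratio of 17.8 (95% counting interval 6.05 to 86.4) that was not called (edgeR, adjusted p = 0.0203). In ExN it stood at 4.17, 5.43 and 6.30 CPM against 0.117 (2 UMIs), with adjusted p = 0.00244 by edgeR, and was not called because 3.15% ± 0.55 (SD, n = 3) of nuclei had a UMI. OPC, Oligo and Microglia had 0 control UMIs. Their injured means were 61.0, 12.6 and 23.1 CPM. The pooled injured sum was 3.77-fold above the level of 3 control UMIs in OPC and 5.33-fold above it in Oligo, while in Microglia it was under that level.

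Within the injured animals Endo stood 2.24 ± 0.21 (log2, SE) above OPC (edgeR, adjusted p = 2.04e-08), the next type. OPC and Astro did not differ past the limit (adjusted p = 0.905), and neither did InN and ExN (adjusted p = 0.887). Of the clients of *SERPINH1* on the list of collagens, *COL4A1*, a basement membrane chain, rose in Endo, at 265, 225 and 261 CPM against 68.6 (14 UMIs), with a log2 fold change of 1.997 ± 0.31 (SE; edgeR, adjusted p = 0.00354). *COL4A2*, its partner chain, rose in Astro, at 106.5, 132 and 141 CPM against 28.9 (25 UMIs), by 2.25 ± 0.31 (SE; edgeR, adjusted p = 0.0064). *COL1A1*, the fibrillar collagen chain, was at 282, 118 and 385 CPM in injured Endo against 29.4 (6 UMIs) and was not called (edgeR, adjusted p = 0.0422). No other listed collagen was called. In Endo *COL4A2* stood at 142, 147 and 187 CPM against 147 (30 UMIs). *COL1A2*, *COL3A1* and *COL5A2* had replicate 2 below control there and replicates 1 and 3 above it. *COL6A2* was above control in every animal and *COL5A1* below it.

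The Endo type held different clusters in the cohorts, and its nuclei numbered 4444 in injured and 181 in control. Of the control nuclei, 155 were in a cluster led by the fibroblast marker *LAMA2* (4675 CPM, with *FLT1*, a receptor that marks endothelium, at 10.9 CPM) and 26 in one with *FLT1* at 2866 CPM. The injured nuclei included 1647 in cluster 14 (*FLT1* at 2207 CPM), 87 in cluster 11 (2684 CPM), 705 in cluster 20, where fibroblast markers summed to 8290 CPM, and 2005 in cluster 19. Cluster 19 had *FLT1* at 21.55 CPM, a median of 1150 UMIs, summed endothelial markers of 183 CPM and summed markers of ExN of 5952 CPM, compared with 6730 and 860 CPM in cluster 14.

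*SERPINH1* was high in cluster 14 (327, 543 and 345 CPM in replicates 1, 2 and 3) and in cluster 20 (378, 178 and 468.5 CPM), and lower in cluster 19 (62.8, 31.0 and 87.3 CPM). *COL1A1* stood at 1390, 423 and 1487 CPM in cluster 20, lowest in replicate 2 as *SERPINH1* was there. *SERPING1* followed the same split, at 210 CPM in cluster 14, 288 in cluster 20 and 96.3 in cluster 19. *SERPINI1* had the reverse, at 199 CPM in cluster 19 against 46.6 and 58.5 CPM in clusters 14 and 20. *SERPINA3* stood at 111.5 CPM in cluster 19, 65.65 in cluster 14 and 13.7 in cluster 20.

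Fits of Endo subsets were added after the data were seen. Without cluster 19, *SERPINH1* was still called, with a ratio of 80.2 (95% counting interval 14.4 to 3168; edgeR, adjusted p = 0.000597, with 4.56% of all genes called higher). *SERPING1* was called too, with a log2 fold change of 3.77 ± 0.61 (SE; edgeR, adjusted p = 0.00453). *SERPINI1* was not called without cluster 19, at 46.6, 47.2 and 55.6 CPM against 9.80 (2 UMIs), a ratio of 5.17 (95% counting interval 1.42 to 42.9; edgeR, adjusted p = 0.0189). Between the fibroblast-marker clusters alone, injured 20 and control 15, *SERPINH1* was at 378, 178 and 468.5 CPM against 0 UMIs, at least 21.6-fold higher, and *SERPING1* was at 317, 321 and 251 CPM against 21.8 (4 UMIs). Neither passed the limit there (edgeR, adjusted p = 0.0256 and 0.0108, with 0.101% of all genes called higher). Between the *FLT1* clusters the control side was 26 nuclei, and 0 of 6 members were called (0.0267% of all genes). *SERPINH1* was at 325, 530 and 333.5 CPM there against 48.6, which was 1 UMI, a ratio of 8.41 (95% counting interval 1.51 to 332).

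**Figure D3:**
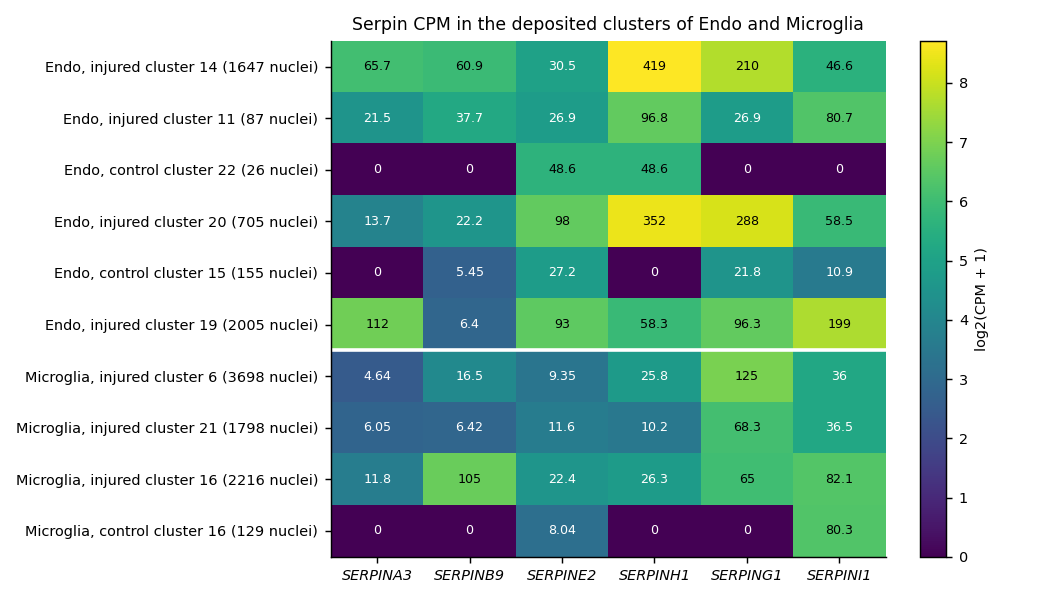
Rows are deposited clusters of the Endo and Microglia types with their number of nuclei, columns are the 6 serpin genes, and the colour is log2(CPM + 1) with the CPM printed in each cell. *SERPINH1* and *SERPING1* are highest in injured Endo clusters 14 and 20, *SERPINI1* in injured cluster 19, and *SERPINB9* in injured Microglia cluster 16.

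*SERPINE2*, protease nexin-1, inhibits thrombin, urokinase and tissue plasminogen activator at the cell surface. In control it was highest in OPC and Astro. In OPC it stood at 196, 162 and 228 CPM against 342 (64 UMIs), and in Astro at 134, 153 and 134 CPM against 217 (188 UMIs). All injured animals were below the control library in both, with log2 fold changes of −0.67 ± 0.26 in OPC and −0.52 ± 0.19 in Astro (SE). Neither was called (edgeR, adjusted p = 0.216 and 0.116), and both were under 0.05 before adjustment.

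Shares of nuclei with a *SERPINE2* UMI depended on depth. Unthinned, 39.55% ± 5.48 (SD, n = 3) of injured astrocytes had a UMI at a median of 3851 UMIs, against 27.3% in control at 1183. At 1000 UMIs per nucleus these became 13.4% ± 1.335 and 19.1%, the order of the CPM. In OPC the thinned shares were 16.4% ± 1.46 and 22.5%. It stood at 41.2 ± 12.98 CPM (SD, n = 3) in ExN against 40.4 (690 UMIs) and at 25.5 ± 3.49 in Oligo against 29.0 (37 UMIs). Endo was above control, at 60.0, 46.0 and 75.5 CPM against 29.4 (6 UMIs), and was not called (edgeR, adjusted p = 0.191).

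Within the injured animals OPC and Astro did not differ past the limit in *SERPINE2* (log2 difference 0.39 ± 0.19, SE; edgeR, adjusted p = 0.118), and Astro exceeded Endo, the next type, by 1.39 ± 0.20 (adjusted p = 3.14e-06). The leading types, OPC and then Astro, were the same in control. Of its target proteases, *PLAT*, tissue plasminogen activator, rose in Oligo, at 69.4, 81.8 and 55.9 CPM against 3.13 (4 UMIs), by 4.535 ± 0.45 (log2, SE; edgeR, adjusted p = 0.00423, with 0.619% of all genes called higher in Oligo). In Endo *PLAT* stood at 858, 644 and 786 CPM against 255 (52 UMIs) and rose by 1.71 ± 0.28 (adjusted p = 0.00488). *F2R*, a thrombin receptor, rose in Endo, at 107, 99.9 and 114 CPM against 29.4 (6 UMIs), by 1.995 ± 0.38 (edgeR, adjusted p = 0.00861), a call that DESeq2 did not make. *PLAU*, urokinase, and *LRP1*, a receptor that clears serpin complexes, were not called in any cell type.

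*SERPINI1*, neuroserpin, is an inhibitor of tissue plasminogen activator secreted by neurons. It rose in ExN, at 158, 170 and 166 CPM against 92.1 (1574 UMIs), and in InN, at 205, 217 and 183 CPM against 113 (348 UMIs). The injured animals were within a narrow range and apart from control in both. The log2 fold changes were 0.95 ± 0.12 and 0.94 ± 0.16 (SE; edgeR, adjusted p = 0.00432 and 0.00542, with 2.60% of all genes called higher in ExN and 2.20% in InN). These were the called rises with the most control UMIs behind them, and without replicate 1 neither was called (edgeR, adjusted p = 0.0225 and 0.0173).

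In Oligo, the type with the most *SERPINI1*, it stood at 263, 279 and 305 CPM against 189.5 (242 UMIs), a log2 fold change of 0.68 ± 0.18 (SE) that was not called (edgeR, adjusted p = 0.0578). In Endo it rose, at 95.4, 91.1 and 87.2 CPM against 9.80 (2 UMIs), a ratio of 9.23 (95% counting interval 2.55 to 76.3; edgeR, adjusted p = 0.00313), a call that DESeq2 did not make (adjusted p = 0.0161). In Astro (30.8, 40.0 and 41.2 CPM against 47.4), OPC (26.5, 43.1 and 40.7 against 48.15, 9 UMIs) and Microglia (42.4, 42.7 and 42.9 against 80.35, 10 UMIs) every injured animal was below the control library, and none was called. In Microglia the fitted change turned from −0.66 to 1.21 (log2) with nuclei thinned to 1000 UMIs, where control kept 37 nuclei, 2.70% of them with a UMI.

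The injury effect on *SERPINI1* in Endo exceeded the mean effect of the other 6 types by 3.101 ± 0.59 (log2, SE; edgeR, adjusted p = 0.0022, with 3.38% of all genes called for Endo). It was 1 of 2 such calls among 42 pairs of member and cell type, 29 of which had a usable standard error, beside 1.05% of all tests over the 7 cell types. The call was lost without replicate 2, with DESeq2 and with nuclei thinned to 1000 UMIs. By pairs of cell types, a comparison added after the data were seen, Endo exceeded Astro by 3.59 ± 0.63 (log2, SE; adjusted p = 0.00128) and Microglia by 3.97 ± 0.76 (adjusted p = 0.00292), where 1.18% of all such tests were called. The control value behind it is 2 UMIs, and cluster 19 held 591 of the 1002 injured Endo UMIs of *SERPINI1*. The difference between cell types was not refitted without that cluster. No pair of ExN, InN and Oligo differed past the limit in its effect.

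Within the injured animals *SERPINI1* was highest in Oligo, 0.54 ± 0.11 (log2, SE) above InN (edgeR, adjusted p = 0.000405), and InN and ExN did not differ past the limit (adjusted p = 0.0712). A UMI was found in 52.6% ± 2.025 (SD, n = 3) of injured ExN at a median of 5949 UMIs and in 14.2% ± 2.76 of OPC at 4239.5. At 1000 UMIs per nucleus the shares were 14.2% ± 0.80 in ExN and 24.2% ± 0.64 in Oligo in the injured animals, against 9.03% and 19.7% in control. For ExN and InN the rise was smaller among nuclei with at most 2500 genes, at 0.73 and 0.49 (log2; edgeR, adjusted p = 0.0659 and 0.188), and neither was called there. The median nucleus of ExN held 5949 UMIs in injured and 2678 in control, and the part of this depth gap in the rise was not tested beyond these fits.

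Across cell types within the injured animals, 100 of 126 comparisons of the 6 members passed the test, beside 48.7% of those of all genes, from 14 of 21 for *SERPINA3* to 18 of 21 for *SERPINH1* and *SERPING1*. The gene most alike in pattern over the 28 sums of library and cell type was *EMP1* for *SERPINA3* (Pearson r of log2(CPM + 1) 0.891), *ZNF598* for *SERPINB9* (0.895), *S100A1* for *SERPINE2* (0.916), *EVA1B* for *SERPINH1* (0.955), the unnamed gene ENSCJAG00000001988 for *SERPING1* (0.956) and *CLGN* for *SERPINI1* (0.922). Next came *FOS* and *TNFRSF12A* for *SERPINA3*, ENSCJAG00000003206 and *RASAL1* for *SERPINB9*, *RCN2* and *TBL1X* for *SERPINE2*, *ID3* and *CD81* for *SERPINH1*, *SDF2L1* and *TAPBPL* for *SERPING1*, and *KIAA1324L* and *PAK5* for *SERPINI1*. These were the closest among 14663 genes, and the sums share libraries, cohorts and depths, so the values are a description.

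In injured OPC, *SERPINA3* UMIs were more frequent in nuclei with a UMI of *GFAP*, the astrocyte filament gene. The comparison was chosen after the values were seen, and nuclei were first thinned to 1000 UMIs. In replicate 1, *SERPINA3* had a UMI in 13 of 78 nuclei with a *GFAP* UMI (16.7%) and in 9 of 201 without (4.48%). In replicate 2 these were 6 of 45 (13.3%) and 14 of 388 (3.61%), and in replicate 3 they were 22 of 115 (19.1%) and 28 of 275 (10.2%). The share was higher beside *GFAP* in 3 of 3 animals. *SERPINB9* had the same order, at 6.41% with and 2.49% without *GFAP*, 11.1% and 6.19%, and 6.96% and 1.82%. *SERPINH1*, *SERPING1* and *SERPINI1* were mixed between animals. The share of all genes with such an order was not computed, so none is read as particular to serpins.

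*SERPINE2* had lower shares beside *GFAP* in OPC and was mixed in Astro. Its share was 10.3%, 6.67% and 14.8% in OPC nuclei with a *GFAP* UMI and 16.9%, 17.3% and 19.3% in those without. In Astro its shares with and without *GFAP* were 17.0% and 11.8% in replicate 1, 14.45% and 14.7% in replicate 2, and 10.2% and 13.1% in replicate 3. In Astro the shares of *SERPINA3* with and without *GFAP* were 6.67% and 2.66%, 5.47% and 3.28%, and 11.2% and 10.8%, a smaller gap in each animal than in OPC. Numbers of nuclei with both genes were low, and no test over the 3 animals was run.

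**Figure D4:**
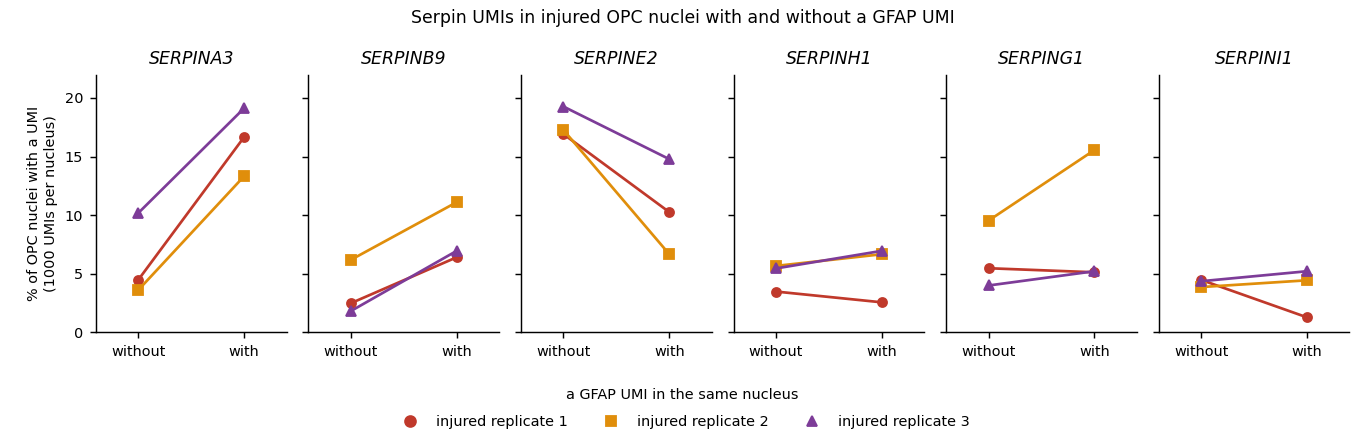
Each panel gives, for 1 serpin gene, the percent of injured OPC nuclei with a UMI at 1000 UMIs per nucleus (y axis), without and with a *GFAP* UMI in the same nucleus (x axis), with 1 line per injured animal. Lines rise for *SERPINA3* and *SERPINB9* and fall for *SERPINE2* in all 3 animals.

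Other genes of the family had no calls in the main test. Besides the 6 members, 24 genes with a symbol starting SERPIN were listed, 17 in both tables, and of 65 tests 0 were called by edgeR (1.61% of all tests were called higher). At an unadjusted p under 0.05, 20 were higher and 8 lower, beside 30.4% of all tests either way, and DESeq2 (2.45% of all tests called higher) called *SERPINB1* in Astro and *SERPINB10* in ExN. *SERPINB1*, an inhibitor of neutrophil proteases, was at 34.6, 53.65 and 60.55 CPM in Astro against 3.47 (3 UMIs).

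*SERPINF1*, a secreted factor that limits vessel growth, was highest in Oligo, at 67.05 ± 2.85 CPM (SD, n = 3) against 45.4 (58 UMIs). *SERPIND1*, heparin cofactor II, was below control in ExN, at 40.2 ± 5.47 CPM against 55.4 (947 UMIs). *SERPINA1*, an inhibitor of neutrophil elastase, was highest in Microglia, at 28.7 ± 7.71 CPM against 16.1 (2 UMIs). *SERPINA5* was at 3.06 ± 1.37 CPM in Endo against 63.7 (13 UMIs), with adjusted p = 0.00388 by edgeR and too few nuclei with a UMI for a call. The same held for higher levels in ExN of *SERPINA1*, at 2.06 ± 0.51 CPM against 0 UMIs, and of *SERPINB1*, at 7.47 ± 0.50 CPM against 2.34 (40 UMIs), with adjusted p = 0.00533 and 0.00614. *SERPINB8*, *SERPINB10* and *SERPINE3* also reached 10 CPM in some sum.

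Of 41 proteases, clients and clearance receptors of serpins, 34 were in both tables, and 8 of 197 tests, in 6 genes, rose and 0 fell (1.61% and 0.748% of all tests over the 7 cell types). Of the 8, 5 were in Endo, where 4.19% of all genes were called higher. Endo held different clusters in the cohorts, and no values of these 5 within Endo subsets are given. Apart from *PLAT*, *F2R*, *C1S*, *COL4A1* and *COL4A2*, the gene that rose was *HTRA1*, a secreted serine protease, in Oligo (574, 492.5 and 625 CPM against 200, 256 UMIs) and in Endo (189.5, 162 and 212 against 24.5, 5 UMIs). By edgeR their adjusted p was 0.0089 and 0.00228. At an unadjusted p under 0.05, 58 of 197 were higher and 21 lower, beside 30.4% of all tests either way. DESeq2 called 6 higher and 1 lower, the latter *HTRA1* in Microglia, at 39.1, 32.7 and 64.3 CPM against 394 (49 UMIs). *FKBP10*, a partner listed for both cohorts, had 0 UMIs in every injured library and cell type. Control held 228 UMIs of it in ExN (13.3 CPM), 29 in Astro (33.5 CPM) and 23 in InN (7.46 CPM). *FKBP10* was not called, and the reason for its absence from the injured libraries was not tested.

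Fitted changes of genes without control UMIs are large whatever the injured level, and in OPC and Microglia 4 of 6 members had none. With genes of 3 or fewer control UMIs set at their bound or ratio, the median log2 change of the 6 members was 4.10 in Astro (all genes tested 0.0324), 1.76 in OPC (−0.0331), 1.55 in Oligo (0.0241), 1.65 in ExN (0.0039), 1.80 in InN (0.00272), 3.08 in Endo (−0.0717) and −0.04 in Microglia (−0.381). The fitted medians, without bounds, were 1.65 in ExN and 9.37 in Microglia, so that in Microglia fit and bound differ in sign. In Microglia 0 of 6 members passed an unadjusted p under 0.05 or were called by DESeq2, and edgeR called 0 of all genes tested.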

How the data were processed

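The authors counted UMIs per gene and nucleus with Cell Ranger 3.1.0 (version per the labels' processing notes) on the calJac3 genome and deposited raw counts without normalization, with tables of nuclei, clusters and cell types. They removed doublets with Scrublet in the injured cohort and through limits on genes per nucleus in control, and no nucleus was removed here. The deposited counts of each library were added up within each cell type and shown as CPM. Injured replicates were numbered in accession order. Genes in both tables were tested with edgeR 4.0.16 in R 4.3.3 (TMM, filterByExpr, quasi-likelihood test), with Benjamini-Hochberg adjustment over all genes of each fit. Tests between cell types had the library or animal as a block. The limits of a call, taken from the methods of the study, were 0.01 for the adjusted p, 0.25 for the size of the natural-log change and 10% for the nuclei with a UMI in either cohort, and tests of injury effects between cell types used the adjusted p alone. P-values measure the spread between the 3 injured libraries only.

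A gene at 0 control UMIs was compared with a floor of 3 UMIs over the cohort, and one with 1 to 3 UMIs is given as a ratio with an exact 95% interval, which covers counting error only. A fold over the floor, called its bound here, takes the pooled injured sum, and single animals can give a lower fold. The floor lies under the exact 95% upper limit of 0 UMIs, at 16.05 against 19.74 CPM in OPC. Shares were also computed with nuclei thinned to 1000 UMIs, shallower nuclei left out. In simulated counts with 200 changed genes, the comparison of 3 libraries with 1 in Astro (12072 genes) recovered 48% of 4-fold and 5% of 2-fold changes, with 4 false calls. Within injured animals these were 80% and 53% (13560 genes), and for the difference of injury effects 42% and 18% (14172 genes), with 0 false calls. Alternatives were DESeq2 1.42.0, RLE factors, library size alone, no filter on low counts, thinning, nuclei with at most 2500 genes, an adjusted p limit of 0.05, unlisted genes counted as 0, a spread shared by all cell types, no block and leaving out each injured animal. Subsets of Endo and Microglia and pairs of injury effects were added after the data were seen.

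The members, the list of proteases, clients and receptors, and the other lists were chosen with earlier results of these data known. Genes named are the members, other serpins that were called or reached 10 CPM in some sum, listed partners that were called or act with a member described, and the 3 genes closest in pattern to each member. A result that this rule would name is not reported here. Other tools were Python 3.11.15, numpy 2.4.6, pandas 2.3.3 and scipy 1.17.1.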

Additional observations from a re-analysis of the deposited data

Results flagged for a closer look

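A test of the injury effect in 1 cell type against the mean of the other 6 was called for 2 of 42 member and cell type pairs (edgeR, library as a block). The fit gave a usable standard error for 29 of the 42. The call for *SERPINB9* was lost with RLE factors, with no block and without replicate 1 or 3, and that for *SERPINI1* with DESeq2, with thinned nuclei and without replicate 2. For *SERPINB9* the effect in Oligo was below the mean of the other 6 cell types, fitted at −6.78 ± 1.23 (log2, SE; adjusted p = 0.00749). Every injured animal was below the control library in Oligo. Astro, OPC and Microglia had 0 control UMIs, so any injured UMI lay above control there, the direction of the contrast was largely set, and this size is no bound. In Microglia, replicates 1 and 3 stood at 18.66 and 13.1 CPM, under the 24.1 CPM of 3 control UMIs. For *SERPINI1* the effect in Endo was 3.101 ± 0.59 above that mean (log2, SE; adjusted p = 0.0022), with 3 of 3 injured animals above 2 control UMIs in Endo and below control in Astro, OPC and Microglia. In Microglia that direction turned with thinned nuclei (1.21, log2), where control kept 37 nuclei. Injured cluster 19, with summed ExN markers of 5952 CPM and endothelial markers of 183 CPM, held 591 of the 1002 injured Endo UMIs of *SERPINI1*. Without it *SERPINI1* in Endo was not called (ratio 5.17 in place of 9.23; edgeR, adjusted p = 0.0189), and the difference between cell types was not refitted.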

How the results depend on the processing

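The count of 6 higher pairs of member and cell type became 10 with DESeq2, 12 at an adjusted p limit of 0.05 and 3 with nuclei thinned to 1000 UMIs, and it ranged from 4 to 16 when an injured replicate was left out (4 without replicate 1, 16 without replicate 2 and 13 without replicate 3). The share of all tests called higher was 1.61% in the main fit and 2.45% with DESeq2. That share is not given for the p limit of 0.05, thinned nuclei or left-out replicates. Those counts are not read as particular to the members. The count was 3 with Endo restricted to the fibroblast-marker clusters or to the *FLT1* clusters, settings added after the data were seen. With thinned nuclei, *SERPINB9* in Astro and *SERPINI1* in Endo had mean injured shares of 6.92% and 9.11%. Both were under the 10% limit, so neither could be called. The count of lower pairs was 0 under each alternative. The 2 differences of injury effect became 1 with RLE factors, with thinned nuclei, with no replicate block and without any of replicates 1, 2 or 3 (range 1 to 1), and 4 when pairs of cell types were compared, added after the data were seen. Pairs of cell types within injured animals kept a count of 80 to 104 beside the main 100, the lowest with no replicate block. No paired analysis was possible because the only control library pools 3 animals, none of them an injured one, and the groups share fewer than 2 replicate numbers.

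Of the log2 fold changes of single members under the alternatives, 466 kept their direction and side of the limits, 33 gained a call, 19 lost one and 4 turned sign. The last were *SERPINE2* in Oligo without injured replicate 2 (0.03), in ExN among nuclei with at most 2500 genes (−0.16) and in ExN when an injured replicate was left out (−0.05 to 0.39, the lowest without replicate 2), and *SERPINI1* in Microglia with thinned nuclei (1.21). In that last fit control kept 37 Microglia nuclei. The causes were not tested. Of 12 alternatives on the whole cell types, *SERPINH1* in Endo was called in 12, *SERPINB9* in Astro, *SERPINI1* in ExN and in Endo in 10 each, and *SERPINI1* in InN and *SERPING1* in Endo in 9 each. The level of 3 control UMIs was highest in Microglia, OPC and Endo, at 24.1, 16.05 and 14.7 CPM.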
